A study of Mus musculus with 8 samples.

Results

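The genes Emp1, H2-DMa, Pdlim5, Specc1, Lpxn, Smox, Anxa3, Fbxo2, Pou6f1 and Sardh, are described in mouse CD4 T cells, 10 of the 13705 genes with a probe set bright on any array. They were chosen by their TGF-b ratios, taken after dim signals had been set to a floor. The floored signal of the brightest probe set of each with TGF-b was 2-fold or more above that without it in wild-type cells and in cells without Smad2, but under 1.5-fold above it in cells without Smad3. For 6 of the 10 genes the floor entered that last ratio, which then is a bound or gives no ratio. At 2-fold there were therefore 0 of the 10 in cells without Smad3 (1.55% of all genes), 10 in cells without Smad2 (2.54%) and 10 in wild type (3.89%). Those ratios describe the choice, and no test is given for them. Naive CD4 T cells, sorted as CD25-, CD44lo and CD62Lhi from the spleens of C57BL/6J mice, were cultured for 24 h with TGF-b at 2 ng/ml or without it. Every culture was stimulated with anti-CD3e on the plate and soluble anti-CD28, 1 ug/ml of either. Every culture also held 10 ng/ml of IL-2 and blocking antibodies against IL-4 and IFN-g (10 ug/ml apiece). The genotypes were Smad3-/- (S3), Smad2del/del made in T cells only (S2), Smad2del/del with Smad3+/- (S23h) and wild type (WT), and each had 1 array with TGF-b and 1 without it, 8 in all. No source used here gives the Cre driver of the Smad2 deletion, and the Smad3 knockout is not described as limited to T cells. The S23h cells, which keep 1 copy of Smad3, took the place of cells without either Smad. No group had a replicate array, so every difference between arrays is a value with no replicate check and no p, and precision is limited by having 1 array per group.

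TGF-b binds a pair of receptor kinases at the cell surface, and the type I receptor phosphorylates Smad2 and Smad3. These join Smad4, enter the nucleus and act on target genes. Smad3 binds DNA directly at short motifs holding CAGAC, while the common form of Smad2 does not bind DNA itself. In CD4 T cells the pathway is known for inducing Foxp3, for restraining IL-2 and effector cytokines and, with IL-6, for Th17 differentiation. The 10 genes belong to no single pathway. Pdlim5, Lpxn and Specc1 encode adaptors of the cytoskeleton and cell adhesion. Emp1 and Anxa3 encode a membrane protein and a membrane-binding protein, and H2-DMa works in antigen processing. Smox and Sardh encode metabolic enzymes, Fbxo2 a subunit of a ubiquitin ligase and Pou6f1 a transcription factor.

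Promoter windows are shown for Pdlim5, Lpxn, H2-DMa and Smox, whose S3 signals could be measured, and for Emp1, which had the largest ratio in WT. Each window runs from 250 bases before to 50 bases after a start in the RefSeq table of GRCm38.p6, and capitals mark CAGAC or its complement GTCTG. The Pdlim5 window is chr3:142395647-142395946 on the minus strand, that of Lpxn chr19:12795943-12796242 on the plus strand, that of H2-DMa chr17:34122582-34122881 on the plus strand, that of Smox chr2:131491612-131491911 on the plus strand and that of Emp1 chr6:135362681-135362980 on the plus strand. For Pdlim5, H2-DMa and Emp1 this is the first of 2 windows in the table.
Pdlim5: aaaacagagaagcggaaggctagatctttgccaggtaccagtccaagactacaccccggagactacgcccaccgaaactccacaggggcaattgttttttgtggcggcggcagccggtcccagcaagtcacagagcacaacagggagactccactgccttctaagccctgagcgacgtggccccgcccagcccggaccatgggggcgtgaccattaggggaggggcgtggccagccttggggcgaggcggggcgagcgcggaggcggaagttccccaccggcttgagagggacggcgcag
Lpxn: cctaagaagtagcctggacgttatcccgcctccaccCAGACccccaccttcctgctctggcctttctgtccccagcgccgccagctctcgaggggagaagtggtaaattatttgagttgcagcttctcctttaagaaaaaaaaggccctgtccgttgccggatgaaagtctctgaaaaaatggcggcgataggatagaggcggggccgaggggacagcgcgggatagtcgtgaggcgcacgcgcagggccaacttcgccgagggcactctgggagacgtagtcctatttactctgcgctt
H2-DMa: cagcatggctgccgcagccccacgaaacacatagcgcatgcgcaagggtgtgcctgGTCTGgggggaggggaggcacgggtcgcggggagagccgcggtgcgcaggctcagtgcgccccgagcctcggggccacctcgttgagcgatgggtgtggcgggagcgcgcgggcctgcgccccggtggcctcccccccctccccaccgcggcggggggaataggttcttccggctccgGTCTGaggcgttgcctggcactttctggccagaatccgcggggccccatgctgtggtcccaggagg
Smox: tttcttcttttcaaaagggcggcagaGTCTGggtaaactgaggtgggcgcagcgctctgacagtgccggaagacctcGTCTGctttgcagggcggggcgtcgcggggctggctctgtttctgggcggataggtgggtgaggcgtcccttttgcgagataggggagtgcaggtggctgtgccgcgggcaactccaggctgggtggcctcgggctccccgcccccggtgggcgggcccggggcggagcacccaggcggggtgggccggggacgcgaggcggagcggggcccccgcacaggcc
Emp1: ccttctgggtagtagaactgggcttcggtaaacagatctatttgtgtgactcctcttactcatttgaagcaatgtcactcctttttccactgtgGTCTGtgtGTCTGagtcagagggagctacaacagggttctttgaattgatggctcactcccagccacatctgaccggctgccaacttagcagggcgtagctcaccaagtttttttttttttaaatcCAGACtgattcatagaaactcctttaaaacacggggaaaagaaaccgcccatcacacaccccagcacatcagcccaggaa

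The CAGAC motif was searched on both strands and lay in 49.6% of the 32851 windows in the table. The table held 13 windows for 9 of the 10 genes, all but Anxa3, and 8 of those windows, of 6 genes, held the motif. It was found in windows of Emp1, H2-DMa, Specc1, Lpxn, Smox and Pou6f1, and these letters were not in the windows of Pdlim5, Fbxo2 or Sardh. In the Emp1 window shown there were 3 matches, beginning 156, 148 and 30 bases upstream of the start. The AP-1 motif TGANTCA, found in 7.81% of all windows, began there at 145 bases, overlapping the match at 148, and at 25 bases, just after the match at 30. It was also in the second H2-DMa window and in no other window of these genes. The palindrome GTCTAGAC lay in 0.213% of all windows and in 0 of the 13. Of the GC-rich motifs that Smads can bind, GGCGC lay in 8 of the 13 and in 36.9% of all windows, and GGCCG in 3 of the 13 and in 35.2%. A match is a description of letters and not a bound site.

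Facts of the arrays touched what could be read. Signals were scaled to a common trimmed mean and set to a floor of 41.8, the median of all scaled signals, before log2 was taken. A gene counted as bright where the higher array of a pair reached 83.7, which is 2 times the floor. Where the dimmer array of a pair was under the floor, the ratio is a bound, and where both were, the pair gives no ratio. The S23h arrays stood apart, with rank correlations of 0.660 to 0.693 to the other 6 arrays, against 0.907 to 0.928 among those 6. Their scaled medians were 90.9 and 88.0 with and without TGF-b, so signals there between the floor and about 90 were no brighter than a typical probe set. All 7 CD4 T cell markers read, among them Cd4 and Cd3e, were bright on every array. The 5 B cell, 5 neutrophil, 2 CD8 T cell and 3 NK cell markers were below 2 times the floor on the WT, S2 and S3 arrays. Of 8 myeloid markers 1 was bright there (Cst3), with the 8 summing to 700.4 to 908, against 8111 and 7997 in S23h with and without TGF-b. Csf1r alone made up 6589 and 6146 of those S23h sums. Lyz2, Cd14 and Adgre1 were bright in S23h too, while Itgam, Cd68 and Fcgr3 were not. Cst3 was lower there, at 505 and 190. The sums of the B, CD8 T and NK cell lists were also higher in S23h, mostly through Pax5 in the B list and Cd8a in the CD8 T list. For Smad3 the brightest probe set gave 622 and 523 in S3 with and without TGF-b, against 467 and 127 in WT, and that of Smad2 read 891 and 983 in S2, against 878 and 910 in WT. The sources used here do not place these probes inside or outside the deleted parts. A probe outside a deletion checks nothing, so the labels remain unchecked by these values.

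**Figure D1:**
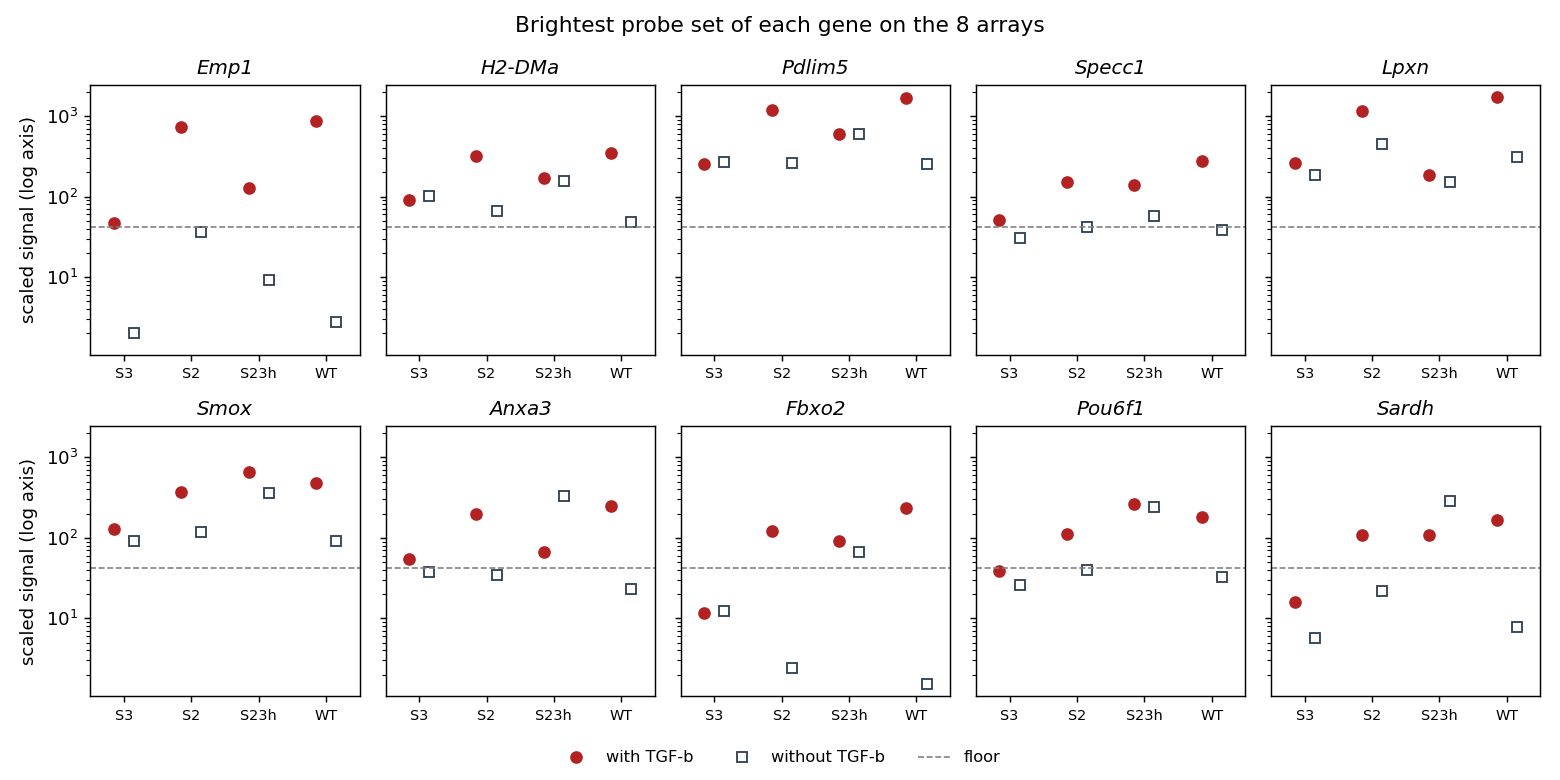
Scaled signal (log axis) of the brightest probe set of each of the 10 genes in S3, S2, S23h and WT, 1 array per point. Filled circles are arrays with TGF-b, open squares arrays without it, and the dashed line is the floor of 41.8. In S3 the signals with TGF-b lay below those of S2 and WT for all 10 genes.

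With TGF-b, all 10 genes read at least 2-fold lower in S3 than in WT, the smallest difference being 3.76-fold for Smox. Among the 7 genes above the floor on both arrays Emp1 differed most, at 18.3-fold. For Fbxo2, Pou6f1 and Sardh the S3 array was under the floor, so their differences are at least 5.59-fold, 4.38-fold and 4.003-fold. Over all genes 1.57% were 2-fold lower in this comparison, but the rule used both arrays and nothing is read from the count. Without TGF-b, 0 of the 10 were 2-fold lower in S3 than in WT, and 1, H2-DMa, was 2-fold higher (background 0.588% and 0.245%). For 6 of the 10 (Emp1, Specc1, Anxa3, Fbxo2, Pou6f1 and Sardh) both of these arrays without TGF-b were under the floor, so no difference between them could be read. In bulk samples, fewer cells expressing a gene and less RNA per cell cannot be told apart.

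The 3 cytoskeletal adaptor genes were led by Pdlim5, which encodes a PDZ and LIM domain protein that links kinases to the actin cytoskeleton. Its brightest probe set, 1427475_a_at, read 254 with and 269 without TGF-b in S3, 1201 and 263 in S2, 608 and 605 in S23h, and 1681 and 255 in WT. The 4 genotypes split into a pair in which TGF-b went with a higher signal, S2 and WT, and a pair with nearly equal signals, S3 and S23h. The log2 ratios were -0.08 in S3, 2.19 in S2, 0.01 in S23h and 2.72 in WT, with no array under the floor. The levels without TGF-b in S3, S2 and WT lay within 255 to 269, so the S3 array with TGF-b differed from the other 2, at 6.61-fold lower than WT.

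Pdlim5 had 7 probe sets, the most of any of these genes. Of the other 6, 4 were 2-fold or more higher with TGF-b in both S2 and WT and had log2 ratios of -0.31 to 0.06 in S3. Probe set 1450786_x_at read 263 and 306 in S3, 1164 and 308 in S2, 231 and 123 in S23h, and 1929.5 and 336 in WT. In S3, S2 and WT this is the pattern of the brightest set, but in S23h its log2 ratio was 0.91. Over the 7 sets the S23h log2 ratios ranged from -0.33 to 1.198, so the S23h reading of Pdlim5 differed between probe sets. Probe set 1422863_s_at had log2 ratios of 0.06 in S3, 2.08 in S2 and 2.44 in WT, and 1422861_s_at of -0.31, 1.96 and 2.25. For 1422862_at they were -0.16 in S3, 2.44 in S2 and 2.11 in WT, the 1 set of these where S2 exceeded WT. The remaining sets did not share the pattern. Probe set 1421413_a_at read 138 and 105 in S3, 147 and 168 in S2, 46.9 and 59.1 in S23h, and 100.4 and 173 in WT, so it was lower with TGF-b in WT. Probe set 1429783_at stayed between 34.6 and 58.7 in S3, S2 and WT, near the floor. Suffixes _s and _x mark, in the array maker's naming, probe sets that may match several transcripts or cross-hybridize.

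**Figure D2:**
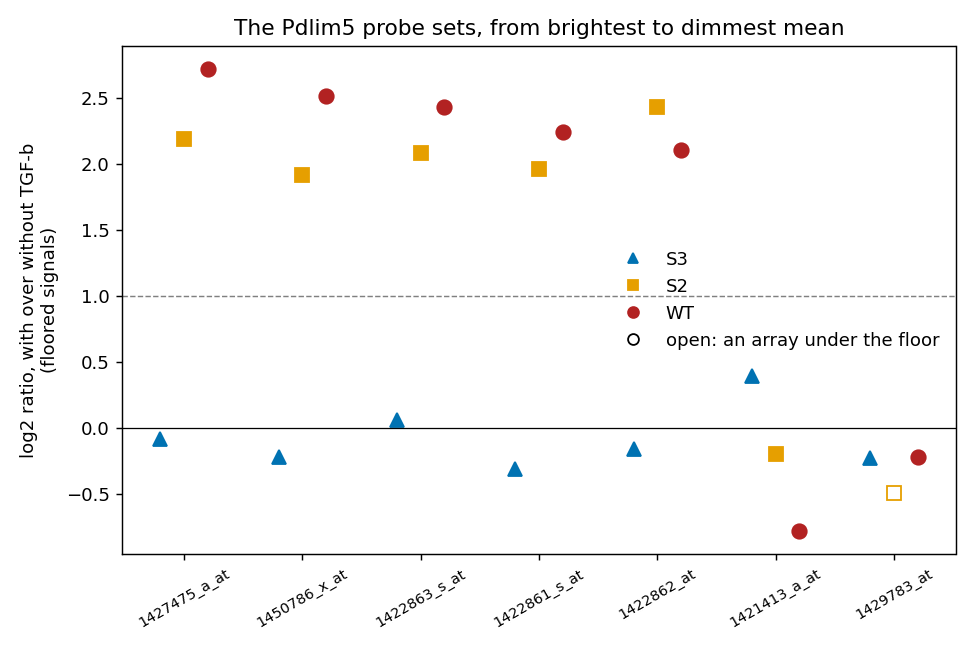
Log2 ratio of signals with over without TGF-b for the 7 Pdlim5 probe sets, ordered from the highest to the lowest mean signal, in S3, S2 and WT. The dashed line marks 2-fold, and open symbols have an array under the floor. In all, 5 sets lay near 0 in S3 and above 1 in S2 and WT, and the other 2 lay below 1 in all of these genotypes.

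Lpxn encodes leupaxin, a LIM domain adaptor of the paxillin family found in leukocytes. It was read by 1 probe set, 1424965_at, at 259 with and 187 without TGF-b in S3, 1145 and 447 in S2, 185 and 153 in S23h, and 1719 and 309.6 in WT. All 8 arrays lay above 2 times the floor, so no ratio is a bound. TGF-b went with a 1.38-fold higher signal in S3 and 1.21-fold in S23h, against 2.56-fold in S2 and 5.55-fold in WT. Without TGF-b the S2 array was the brightest, 1.44-fold above WT. With TGF-b, Lpxn was 6.64-fold lower in S3 than in WT, and without it 1.66-fold lower.

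Specc1 encodes cytospin-B, a coiled-coil protein of the cytoskeleton. Its brightest set, 1458440_at, read 50.8 with and 30.4 without TGF-b in S3, 153 and 42.3 in S2, 140 and 57.4 in S23h, and 274 and 38.5 in WT. The signals without TGF-b clustered about the floor in every genotype. The ratio was at least 1.21-fold in S3, 3.61-fold in S2, 2.44-fold in S23h and at least 6.54-fold in WT. As the S3 array without TGF-b was under the floor, the S3 ratio is a lower bound, and the unfloored signals stood 1.67-fold apart, above the 1.5-fold limit of the rule. The other Specc1 sets, 1459415_at and 1428794_at, were under the floor on 7 of 8 arrays each and gave no ratio in S3, S2 or WT.

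Among the membrane genes, Emp1 encodes a tetraspan protein of the PMP22 family. Probe set 1416529_at read 47.6 with and 2.05 without TGF-b in S3, 734 and 35.9 in S2, 127 and 9.32 in S23h, and 869.6 and 2.78 in WT. On every pair the array with TGF-b was the brighter, and on every pair the other array was under the floor. The ratio was at least 1.14-fold in S3, at least 17.5-fold in S2, at least 3.04-fold in S23h and at least 20.8-fold in WT. The S3 value is thus a lower bound and does not show a response under 1.5-fold. The unfloored S3 signals stood 23.3-fold apart, although the lower one, near 2, is far under the floor and poorly measured. What the arrays measured is the level with TGF-b, 18.3-fold lower in S3 than in WT. A second set, 1459171_at, read 7.70 and 34.3 in S3, 74.6 and 7.30 in S2, 212 and 119 in S23h, and 32.0 and 7.87 in WT. It was above the floor in S2 with TGF-b and on both S23h arrays, and both WT arrays were under it, so it gave no ratio in WT.

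Anxa3 encodes a calcium-dependent phospholipid-binding annexin, abundant in neutrophils. Its only probe set, 1460330_at, read 54.3 with and 37.5 without TGF-b in S3, 197 and 34.3 in S2, 65.9 and 335 in S23h, and 250.1 and 22.9 in WT. The direction in S23h was opposite to that in the others. The ratio was at least 1.30-fold in S3, at least 4.72-fold in S2 and at least 5.98-fold in WT, whereas in S23h the array with TGF-b was 5.08-fold lower. The S23h array without TGF-b was the brightest of all 8. The 5 neutrophil markers read, S100a8, S100a9, Mpo, Elane and Ltf, summed to 8.35 to 94.9 on the WT, S2 and S3 arrays, where none was at 2 times the floor, and to 1028 and 1287 in S23h with and without TGF-b. Mpo alone made up 637 and 1025 of those S23h sums. The other markers of the list read 52.4 to 124 in S23h, around the array medians of 90.9 and 88.0. The sums therefore rest mostly on 1 probe set, and the part of these markers in the S23h values of Anxa3 was not tested.

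H2-DMa encodes a chain of H2-DM, the chaperone that loads peptides on MHC class II molecules. Probe set 1422527_at read 90.0 with and 103 without TGF-b in S3, 318 and 67.1 in S2, 168 and 157 in S23h, and 348 and 48.4 in WT. No array was under the floor, and the S3 pair, like the S23h pair, had close signals. The log2 ratios were -0.20 in S3, 2.25 in S2, 0.10 in S23h and 2.85 in WT. Without TGF-b, H2-DMa was 2.13-fold above WT in S3, while the other 3 genes with both of these arrays above the floor, Pdlim5, Smox and Lpxn, stood at 1.06, 0.985 and 0.604 of WT. A second set, 1459872_x_at, was under the floor on the 6 S3, S2 and WT arrays and gave no ratio there. Its unfloored signals of 1.87 and 18.3 in S3, 20.9 and 2.23 in S2 and 21.3 and 9.97 in WT are too dim to be read.

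Other genes of class II presentation were mostly too dim to compare. Of 11 genes listed for class II presentation, 2 were bright enough to be tested on the S3, S2 and WT arrays, Ctss and Cd74. Cd74, the invariant chain that H2-DM acts after, read 153 and 175 in S3, 196 and 304 in S2, 404 and 496 in S23h, and 124 and 191 in WT with and without TGF-b. Over S3, S2 and WT it fell by 0.49 in log2 units, with an SE of 0.143 and an adjusted p of 0.0455 in limma. Of the 5 markers of class II antigen-presenting cells, H2-Aa, H2-Ab1, H2-Eb1 and Ciita were under the floor on those 6 arrays, so of these markers only Cd74 was readable where H2-DMa was high. The 5 markers summed to 904 and 919.7 in S23h with and without TGF-b and to 173 to 362 elsewhere. Cd74 made up 404 and 496 of those S23h sums. H2-Aa read 210 and 51.0 in S23h and H2-Ab1 221 and 300, in opposite directions, and H2-Eb1 and Ciita were under the medians of those arrays. The part of these markers in the S23h values of H2-DMa was not tested.

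Smox encodes spermine oxidase, which turns spermine into spermidine. Probe set 1424268_at read 129 with and 90.8 without TGF-b in S3, 368 and 117 in S2, 651 and 360 in S23h, and 487 and 92.2 in WT. All 8 signals were above 2 times the floor, and TGF-b went with the brighter array in each genotype. The ratio was 1.43-fold in S3, 3.15-fold in S2, 1.81-fold in S23h and 5.28-fold in WT, so among the 4 genes with a measured S3 ratio Smox was nearest the 1.5-fold limit. The second set, 1446509_at, was dim, under the floor on 7 of 8 arrays.

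Sardh encodes sarcosine dehydrogenase, a mitochondrial enzyme that makes glycine from sarcosine. Probe set 1416662_at read 16.03 with and 5.67 without TGF-b in S3, 110.0 and 22.1 in S2, 107 and 288 in S23h, and 167 and 7.72 in WT. Both S3 signals were under the floor, so S3 gave no ratio, while the level with TGF-b was at least 4.003-fold lower than in WT. The ratio was at least 2.63-fold in S2 and at least 4.003-fold in WT, and in S23h the array with TGF-b was 2.69-fold lower. A second set, 1448426_at, from the same accession, read 1.30 and 0.939 in S3, 31.0 and 1.67 in S2, 199.5 and 112 in S23h, and 53.3 and 1.13 in WT. It was above the floor in WT with TGF-b alone among the S3, S2 and WT arrays, and in S23h it was 1.78-fold higher with TGF-b, where the first set was lower.

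Fbxo2 encodes an F-box protein that recognises N-glycans on proteins for ubiquitination, best known from neurons. Its only set, 1427004_at, read 11.8 with and 12.5 without TGF-b in S3, 123 and 2.43 in S2, 90.7 and 66.8 in S23h, and 234 and 1.55 in WT. The signal cleared the floor with TGF-b in S2 and WT, and neither S3 array did. The ratio was at least 2.94-fold in S2, 1.36-fold in S23h and at least 5.59-fold in WT. Pou6f1, a POU-domain transcription factor gene, behaved alike at set 1452844_at, with 38.7 and 25.9 in S3, 111 and 39.4 in S2, 264 and 243 in S23h, and 183 and 32.2 in WT. Its ratio was at least 2.65-fold in S2, 1.08-fold in S23h and at least 4.38-fold in WT, with both S3 arrays under the floor. A second Pou6f1 set, 1420749_a_at, was under the floor on all 8 arrays.

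**Figure D3:**
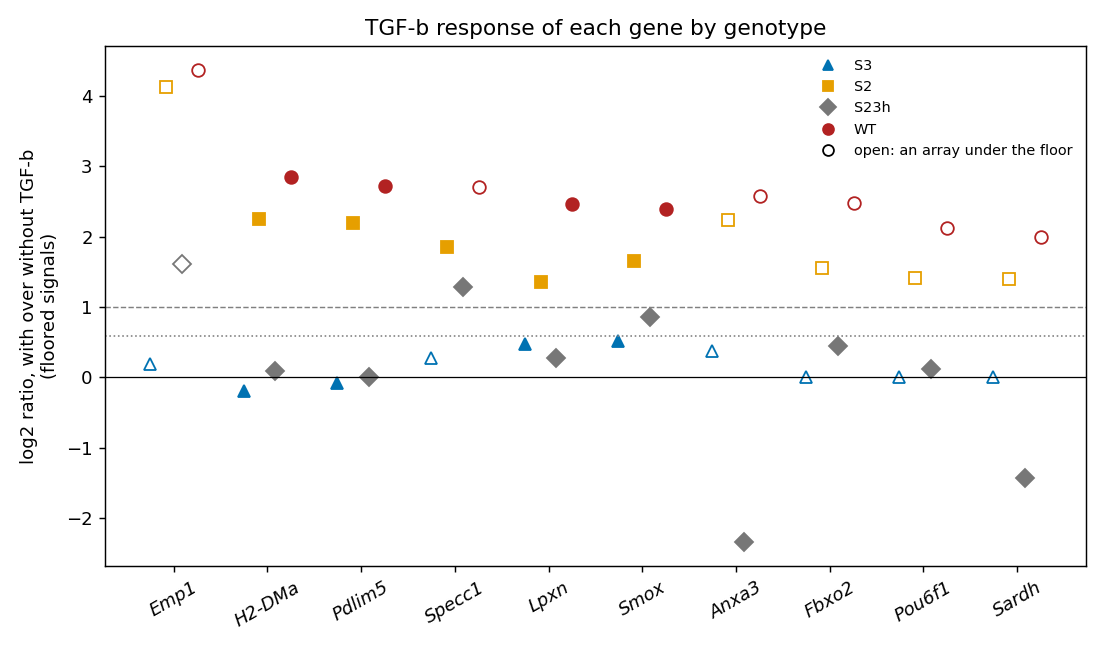
Log2 ratio of floored signals with over without TGF-b for the 10 genes in S3, S2, S23h and WT. Open symbols have 1 or both arrays under the floor, the dashed line marks 2-fold and the dotted line 1.5-fold. The S3 points lie below the dotted line and 6 of the 10 are open, and Anxa3 and Sardh lie below 0 in S23h.

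Sorting the genes by what the S3 arrays allowed gave 3 classes. In 4 of the 10 (Pdlim5, Lpxn, H2-DMa and Smox) both S3 signals were above the floor and the ratio was measured. In 3 (Emp1, Specc1 and Anxa3) the S3 array without TGF-b was under the floor, so the ratio is a lower bound. In 3 (Fbxo2, Pou6f1 and Sardh) both were under it. The WT ratio was a bound in 6 genes and the S2 ratio in 5. The description of a rise lost without Smad3 therefore rests on ratios in 4 genes and on the level with TGF-b in the other 6. In S2 the floored ratio was smaller than in WT in all 10, with medians of 1.75 and 2.53 on the log2 scale, and smaller in 78.9% of all 180 genes 2-fold higher in both. For Emp1, Anxa3, Fbxo2, Pou6f1 and Sardh both ratios were lower bounds, so only their signals with TGF-b were compared. The sizes of the responses in these 5 cannot be ordered, and the medians mix bounds with measured ratios. With TGF-b the 10 genes were 1.09-fold to 1.90-fold lower in S2 than in WT, and 0 of 10 were 2-fold lower, where 0.917% of all genes were.

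Second probe sets added little beyond Pdlim5. Of 13 such sets, for 7 genes, 8 were below 2 times the floor on all S3, S2 and WT arrays. The other 5 were all for Pdlim5, and 4 of them shared the pattern of its brightest set. Anxa3, Lpxn and Fbxo2 had 1 set each.

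The S23h ratios were the ones that the choice of genes had not used. The S23h arrays did enter the scaling, the floor and the choice of the brightest probe set. Prepared without them, 8 of the 10 met the rule, and Emp1 and Specc1 did not. Among the 10, Emp1 and Specc1 (2 genes) reached 2-fold higher with TGF-b in S23h, and Anxa3 and Sardh (2 genes) 2-fold lower. Over all genes the shares were 11.4% higher and 9.62% lower. The median log2 ratio of the 10 was 0.20, with a range of -2.34 to 1.61, against 0.00 over all genes bright in S23h. For Emp1 and Specc1 the array without TGF-b read 9.32 and 57.4, both under that array's median of 88.0. With every array centred on its median, Emp1 and Specc1 stood at 0.49 and 0.63 and 0 of the 10 reached 2-fold higher, while Anxa3 and Sardh stood at -1.93 and -1.47.

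By the same rule, 50 of 8121 genes, or 0.616%, were at least 2-fold higher in WT and S2 and under 1.5-fold in S3, the 10 listed genes and 40 others. The 40 included Smad3, the gene targeted in S3, whose probes could not be placed inside or outside the deleted part. It read 622 and 523 in S3 with and without TGF-b, 372 and 153 in S2, and 467 and 127 in WT. The mirror image, 2-fold higher in S3 and WT but under 1.5-fold in S2, was met by 8 of 8085 genes, or 0.0989%. Of the 180 genes 2-fold higher in S2 and WT, 79, or 43.9%, were so in S3 too, 51 lay between, and the 50, or 27.8%, lay under 1.5-fold. The spread of responses was also narrower in S3, with a robust SD of log2 ratios of 0.203, against 0.267 in S2 and 0.334 in WT. Its part in the unequal counts was not tested. With the floor at the 25th percentile of signals the counts were 110 and 70, so their ratio depends on how dim signals are treated. In 35 of the 50 genes both S3 arrays were above the floor. Just inside the limit in S3 were Ifi47 and A630023P12Rik at 1.49-fold each, and just outside it Phldb1 at 1.501-fold and Pde4d at 1.52-fold.

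**Figure D4:**
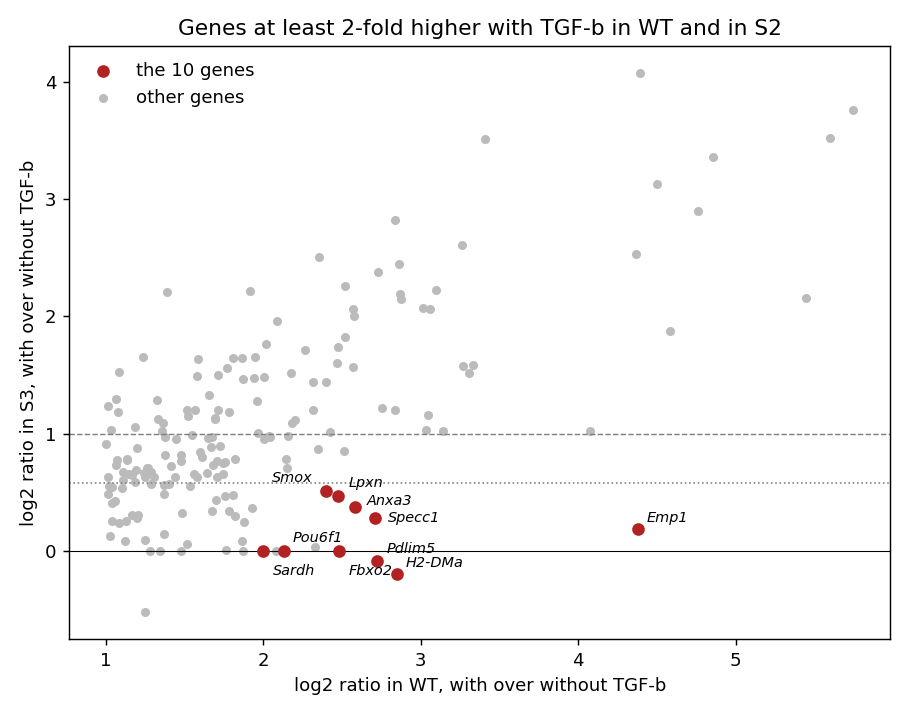
Log2 ratio of signals with over without TGF-b in S3 (vertical) against WT (horizontal) for the 180 genes at least 2-fold higher in WT and S2, with the 10 listed genes in red. The dashed line marks 2-fold in S3, the dotted line 1.5-fold. The listed genes lie under the dotted line at WT ratios of 2.00 to 4.38.

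Of the 40 other genes, the 8 with the largest smaller ratio of S2 and WT were Il18r1, Gpr83, Nrarp, Acsbg1, Mxd4, Armcx4, Ldlrad4 and Arhgap25. Nrarp, a feedback inhibitor of Notch signalling, read 48.6 and 47.3 in S3 with and without TGF-b, 205 and 72.3 in S2, and 266 and 52.8 in WT. Gpr83, a receptor gene of regulatory T cells, read 189 and 137 in S3, 448 and 148 in S2, and 290.4 and 86.0 in WT. Arhgap25, a Rac regulator of blood cells, read 163 and 117 in S3, 289.9 and 111 in S2, and 451 and 129 in WT. These 3 and Armcx4 had both S3 arrays above the floor. Il18r1, a chain of the IL-18 receptor, and Mxd4, an antagonist of Myc, had bounds in S3. Acsbg1, an acyl-CoA synthetase gene, and Ldlrad4, an inhibitor of TGF-b signalling, had both S3 arrays under the floor. Of the 40, 5 were 2-fold higher and 1 was 2-fold lower with TGF-b in S23h, against 11.4% and 9.62% of all genes. Nothing is read from these counts.

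The 5 leading mirror genes were Abi3, Slc4a11, Xcl1, Ier3 and Serf1. Xcl1, a chemokine of activated T cells, read 612 and 249 in S3, 407 and 296 in S2, and 376 and 108 in WT. In S2 its signal with TGF-b was not below that of WT, and the smaller ratio came with a higher signal without TGF-b. Ier3, an immediate early gene, read 142 and 57.9 in S3, 51.3 and 38.8 in S2, and 103 and 13.1 in WT, with both S2 arrays near the floor.

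The genes most alike over the 6 S3, S2 and WT arrays, by Pearson correlation of log2 floored signals with the mean of the 10, were Acsbg1, Akap12, 4931414P19Rik, Prg4 and Neu3, at 0.997 to 0.998. The 10 genes themselves stood at 0.949 for H2-DMa to 0.998 for Pdlim5. Each is part of that mean and was chosen on these 6 arrays, so nothing is read from those values. All 5 of the other genes were under the floor on the 4 arrays other than S2 and WT with TGF-b, and such flat profiles reach high correlations easily. Akap12, a scaffold for protein kinase A, read 36.7 and 25.3 in S3 with and without TGF-b, 84.3 and 25.8 in S2, and 102 and 4.70 in WT.

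Relatives and partners of the 10 genes were tested for a mean TGF-b response over S3, S2 and WT, with genotype as a block. Of 72 listed, 37 were bright enough, of which 6 rose and 5 fell. Over all 9465 genes tested, limma called 7.15% higher and 5.64% lower. The labels do not say whether both cultures of a genotype shared animals, and no genotype has a second pair. The p-values therefore cover only how the response varied between the pairs of the 3 genotypes. Without the WT pair 0 of the 37 rose and 1 fell, without the S2 pair 5 and 2, and without the S3 pair 7 and 9. On all 8 arrays the counts were 0 and 0 of 51.

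Of the paxillin and focal adhesion genes, 2 of 8 tested rose and 0 fell. Pxn, which encodes paxillin, was 0.57 higher in log2 units, with an SE of 0.0988 and an adjusted p of 0.00272, and the ARF regulator Git2 was 0.34 higher (adjusted p = 0.0276). Pxn read 640.1 with and 505 without TGF-b in S3, 754 and 482 in S2, and 787 and 475 in WT. In the PDZ-LIM family 0 of 4 tested rose and 1 fell. Pdlim7 fell by 0.77 (SE 0.199, adjusted p = 0.0251). Pdlim4, just short of bright over all 8 arrays, read 30.6 and 49.3 in S3, 76.9 and 23.9 in S2, and 83.2 and 6.33 in WT, and its mean response did not pass (0.79, adjusted p = 0.278). The cytospin relative Specc1l was at -0.09 (adjusted p = 0.667).

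Emp3, the 1 tested relative of Emp1, rose by 0.70 (SE 0.129, adjusted p = 0.00654). It read 747 and 405 in S3, 581 and 478 in S2, and 756 and 392.3 in WT, so its log2 ratios were 0.88 in S3, 0.28 in S2 and 0.95 in WT. Of 5 annexins tested 2 rose and 1 fell. Anxa2 rose by 0.84 (adjusted p = 0.00459) and Anxa4 by 1.15 (adjusted p = 0.00759), while Anxa7 fell by 0.28 (adjusted p = 0.0415). Anxa4 read 81.7 and 37.5 in S3, 75.3 and 38.3 in S2, and 115 and 44.5 in WT.

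Few enzymes around Smox and Sardh passed the test. Of 6 polyamine genes tested 0 rose and 0 fell, and Odc1, the rate-limiting enzyme of polyamine synthesis, was at -0.17 (adjusted p = 0.117), with Sat1, which acetylates spermidine and spermine, at -0.26 (adjusted p = 0.0528). Of 4 sarcosine and one-carbon genes tested 1 fell, Shmt1 by 0.30 (adjusted p = 0.0133), a serine hydroxymethyltransferase that makes glycine. Of 4 genes of sugar-binding F-box proteins and their ligase, 1 rose, Fbxo6 by 0.94 (SE 0.185, adjusted p = 0.00663). Fbxo6, which also recognises N-glycans, met the rule, with 156 and 116 in S3, 214 and 85.4 in S2, and 202 and 96.8 in WT. Of the POU list, Pou2af1, a coactivator of octamer factors, fell by 1.01 (adjusted p = 1.96e-05), 1 of 2 tested.

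The TGF-b feedback genes and direct Smad targets were read on the same arrays. In the mean over S3, S2 and WT, limma called 9 of 13 tested higher and 0 lower. Id3 was lower with TGF-b in each genotype, at log2 ratios of -0.29 in S3, -0.65 in S2 and -1.50 in WT. Its mean response of -0.81 did not pass in limma (adjusted p = 0.142). Within genotypes, 4 of the 13 were 2-fold higher with TGF-b in S3, 8 in S2 and 7 in WT. The shares over all genes were 1.55%, 2.54% and 3.89%. The S3 ratio was below both the S2 and the WT ratio in 9 of the 13. The share of all genes with that order was not counted, and S3 had the narrowest spread of responses. Among the 9, Pmepa1 had close log2 ratios of 2.61 in S3 and 2.64 in S2, and both Ldlrad4 arrays in S3 were under the floor. Pmepa1, an inhibitor of TGF-b signalling, read 861 and 141 in S3, 1003 and 161 in S2, and 1389 and 145 in WT. Skil, a Smad corepressor, read 1566 and 563 in S3, 1636 and 382 in S2, and 1840.2 and 478 in WT. Both reached 2-fold in each of the 3 genotypes, as did Klf10, a zinc-finger repressor, with log2 ratios of 1.96 in S3, 1.75 in S2 and 2.09 in WT. Id1, an inhibitor of helix-loop-helix factors, also did, at 1.09 in S3, 2.00 in S2 and 2.18 in WT. The ubiquitin ligase gene Smurf2 stood at 0.16 in S3, 0.76 in S2 and 0.63 in WT. Its relative Smurf1, whose mean response did not pass (adjusted p = 0.397), stood at -0.25 in S3, 0.58 in S2 and 0.47 in WT. With 1 array per group these differences between genotypes were not tested. Ldlrad4 was the 1 gene of the 14 listed that met the rule for the 10 genes.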

How the data were processed

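Affymetrix arrays gave 1 value per probe set for each of 8 samples. The deposited values are signal intensities on a linear scale, and GCOS 1.4 is named in the submitters' processing notes. No source used here gives the algorithm, background handling or scaling. Each array was scaled to the mean of the 2% trimmed means (factors 0.840 and 0.917 for S3 with and without TGF-b, 0.860 and 0.726 for S2, 2.22 and 1.98 for S23h, 1.07 and 0.774 for WT), floored at 41.8 and taken to log2. The probe set with the highest mean stood for each gene, and it was chosen again for the fit of the relatives. The platform annotation gave 1 gene symbol to 34945 of 45101 probe sets, several to 932, which were not used, and none to 9160, and 64 more were controls. For the relatives, the S3, S2 and WT arrays were prepared on their own (floor 32.5) and fitted with limma 3.58.1 in R 4.3.3, genotype as a block, trend and robust variances, and Benjamini-Hochberg adjustment at 0.05, with 2 residual degrees of freedom. The fit was tested on simulated data. S23h was left out because it was known to stand apart.

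The members and lists were chosen with earlier results of these data known. The text names the 10 genes with every probe set, the 8 leading other genes that meet the rule, 5 mirror genes, 5 genes of like pattern and called relatives. Other relatives and edge genes named were chosen after their values were seen. Alternatives were quantile normalization, centring on the median, other floors, log2(signal + 16), other probe set rules, other arrays, filters, blocks and variance settings. Promoters came from RefSeq. Figures were drawn with matplotlib 3.10.9 in Python 3.11.15.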

Additional observations from a re-analysis of the deposited data

Results flagged for a closer look

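In 4 cases a gene's response ran opposite to its own in WT, and with 1 array per group none of these differences was tested. The log2 ratios with over without TGF-b were -0.20 for H2-DMa in S3, against 2.85 in WT, and -0.081 for Pdlim5 in S3, against 2.72 in WT. Both S3 values are close to 0 and the choice of genes used them. Anxa3 stood at -2.34 in S23h, against 2.58 or more in WT, and Sardh at -1.43 in S23h, against 2.00 or more in WT. The second Sardh probe set was 1.78-fold higher with TGF-b in S23h, and Anxa3 has no second set.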

How the results depend on the processing

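All 10 genes met the rule as reported, and 7 to 9 did under quantile normalization, centring on the median, the floor at the 25th percentile, log2(signal + 16), the mean of probe sets or preparation without S23h. With the floor at the 75th percentile 3 did, since that floor lay at 206. Pdlim5 and Lpxn met it under all 7 of these alternatives. Emp1 met it under 2 of 7, with S3 log2 ratios up to 2.35, and Specc1 under 3. With the limit in S3 lowered to 1.2-fold, 6 of the 10 met the rule, while Specc1, Lpxn, Smox and Anxa3 did not. The 50 genes meeting the rule became 38 to 63 under most alternatives, 110 with the lower floor (70 mirror genes), 19 with the higher one (0 mirror genes) and 24 with a limit of 1.2-fold in S3. Of the 10 genes, 4 were at 2-fold in S23h, 2 with centred arrays and 0 with the higher floor. With that floor only Emp1, Pdlim5, Lpxn and Smox were bright enough to be kept. No member's called ratio changed sign, though ratios floored to 0 and genes dropped as dim could not show a change. Of the members' ratios under the alternatives, 77 moved by at least the robust SD of their genotype and 169 did not. The S23h log2 ratio of Sardh went from -1.43 to -0.30 with the mean of probe sets. The 1211 genes limma called were 735 with the higher floor, 471 with no filter, 19 on all 8 arrays, 600 without the genotype block and 392 without trend and robust settings, and leaving out 1 genotype's pair gave 390.0 to 1802. The causes of these shifts were not tested. The genotype block pairs the arrays with and without TGF-b of each genotype, and the labels give no replicate numbers for any other pairing. Signals under the floor limit every ratio of a dim gene.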
